A study of Homo sapiens with 12 samples.

Results

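The transcripts described here are 783 long non-coding RNA (lncRNA) genes measured in THP-1 cells, an acute myeloid leukaemia line that carries the MLL-AF9 fusion. They are the autosomal GENCODE v29 genes typed lincRNA or antisense whose row in the count table held at least 120 reads over 12 libraries. The annotation types 370 of them lincRNA (nominally between other genes) and 413 antisense (nominally against another gene). By the position classes used below, 15 lincRNA genes overlapped a coding gene on the other strand and 20 on the same strand. Of the antisense genes, 49 were classed as apart from coding genes with at least 120 reads. Small nucleolar RNA host genes (symbols that begin with SNHG) and GAS5, ZFAS1, DANCR and EPB41L4A-AS1 were left out by symbol. In all, 57096 human genes had a row, and 11429 of 12212 eligible lncRNA genes fell below 120 reads. The genes were selected on their summed reads over all 12 libraries, so their overall level is a description. At the limit, AC009318.2, LNCARSR and SAMMSON had 120 reads, while CARMN, AC022007.1 and AC018797.2 had 119 and were left out. All groups came from the same line. Cells were kept for 2 hours with AZ5576 (a CDK9 inhibitor), THZ531 (CDK12 and CDK13), YKL5124 (CDK7) or the vehicle DMSO. All 4 groups also received 1 mM 4-thiouridine, a nucleoside that marks newly made RNA, 10 minutes before harvest. Each of the 4 groups held 3 libraries, prepared by a 3' end method that primes on poly(A) tails, with Drosophila S2 cells as a spike-in, and total reads are used, not the marked ones. The labels give no dose. They do not say that replicates were separate cultures, and p-values here therefore rest on a spread among libraries that may be technical only. The DMSO columns carry the name UT and were matched to DMSO by elimination. The comparisons ask how lncRNA levels differ after short inhibition of kinases that act on RNA polymerase II.

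An lncRNA is a transcript without a long open reading frame. Many are made by RNA polymerase II, capped and polyadenylated like mRNAs, and many begin close to the start of a coding gene and run away from it on the opposite strand. Some belong to nuclear bodies, such as NEAT1, the scaffold of paraspeckles, and MALAT1, a resident of speckles. Others silence neighbouring genes or bind proteins in the cytoplasm, while most have no assigned function. CDK7 and CDK9 act early in transcription, at initiation and at release of the paused polymerase, and CDK12 and CDK13 act during elongation and in the use of 3' ends.

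Reads of this assay start near polyadenylated 3' ends, and a row appeared to count the whole last exon of its transcript. That exon has 8708 bases in MALAT1, so the annotated end is only part of what was counted. Where in the exon the reads lay, and whether a transcript carries a tail at its annotated end, were not examined. The levels of MALAT1 and of NEAT1, whose counted exon has 22743 bases, carry this limit. The last 60 bases of 10 counted transcripts are shown for genes that recur below, from GENCODE v29 (GRCh38), written 5′ to 3′, with the poly(A) signal AATAAA in capitals where it lies in the last 50 bases. The first is MALAT1, the next 3 rose under AZ5576, ZKSCAN2-DT and NFYC-AS1 fell under it, and the last 4 fell or rose under THZ531.
MALAT1 (chr11:65506410-65506469, plus strand): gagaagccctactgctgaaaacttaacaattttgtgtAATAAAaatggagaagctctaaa
AC009404.1 (chr2:117841599-117841658, plus strand): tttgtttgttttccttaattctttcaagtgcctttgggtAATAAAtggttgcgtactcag
AC108673.3 (chr3:129163606-129163665, minus strand): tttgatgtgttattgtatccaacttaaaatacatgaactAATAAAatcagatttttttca
AC018638.6 (chr7:128691658-128691717, plus strand): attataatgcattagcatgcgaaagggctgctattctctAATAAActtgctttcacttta
ZKSCAN2-DT (chr16:25261007-25261066, plus strand): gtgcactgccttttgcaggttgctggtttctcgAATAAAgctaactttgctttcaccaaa
NFYC-AS1 (chr1:40690380-40690439, minus strand): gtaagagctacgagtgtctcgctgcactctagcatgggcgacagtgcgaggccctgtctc
AC239799.2 (chr1:146237748-146237807, plus strand): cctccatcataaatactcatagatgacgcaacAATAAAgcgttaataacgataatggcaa
MIRLET7BHG (chr22:46113869-46113928, plus strand): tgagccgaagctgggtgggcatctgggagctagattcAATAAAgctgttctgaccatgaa
SRGAP2-AS1 (chr1:121360156-121360215, minus strand): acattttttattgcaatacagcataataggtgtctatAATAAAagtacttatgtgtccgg
AC091271.1 (chr17:59618553-59618612, minus strand): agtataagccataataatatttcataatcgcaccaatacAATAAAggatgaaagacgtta

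AATAAA was searched on the transcribed strand alone, and ATTAAA was counted where AATAAA was not there. Of the 783 transcript ends, 408 (52.1%) held AATAAA and 104 (13.3%) held ATTAAA without it. The share with AATAAA was 57.6% in lincRNA and 47.2% in antisense genes, against 62.5% in 11357 protein-coding genes and 53.1% in all 14824 genes with at least 120 reads. The annotated end of NFYC-AS1 held neither hexamer.

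RefSeq's promoter table (GRCh38.p14) held a window from 250 bases before to 50 bases after the start for 182 of the lncRNA genes, matched by symbol. These RefSeq starts need not be the GENCODE starts that set the position classes. For HOTTIP the window begins at 27200171, past the GENCODE start at 27198575. Windows of 90 divergent genes, which start within 1000 bases of a coding start on the opposite strand, had a median of 30 CG pairs, against 14 in all 27195 promoters. CCAAT, searched on both strands (ATTGG on the other), was in 43.3% of divergent windows, 40.1% of all matched lncRNA windows and 35.7% of all promoters. TATAAA, likewise searched on both strands, was in 6.67%, 7.69% and 12%. The windows of HOTTIP and CARD8-AS1 are shown, with CCAAT or ATTGG and TATAAA in capitals, because both genes fell under AZ5576 and their windows differ in base content.
HOTTIP (chr7:27200171-27200470, plus strand): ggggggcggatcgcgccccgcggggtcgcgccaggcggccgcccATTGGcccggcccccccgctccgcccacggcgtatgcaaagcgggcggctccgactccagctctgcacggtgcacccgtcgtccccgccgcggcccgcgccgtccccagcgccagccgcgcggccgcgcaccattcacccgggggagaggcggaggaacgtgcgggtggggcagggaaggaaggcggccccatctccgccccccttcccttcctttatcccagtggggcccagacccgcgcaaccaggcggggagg
CARD8-AS1 (chr19:48255425-48255724, plus strand): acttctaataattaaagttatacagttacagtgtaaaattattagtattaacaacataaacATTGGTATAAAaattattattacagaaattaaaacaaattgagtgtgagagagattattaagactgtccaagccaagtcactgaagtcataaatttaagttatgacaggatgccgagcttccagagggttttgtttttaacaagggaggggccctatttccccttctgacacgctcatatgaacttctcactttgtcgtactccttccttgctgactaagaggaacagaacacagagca
The HOTTIP window held 41 CG pairs and 1 ATTGG. That of CARD8-AS1 held 3 CG pairs, 1 ATTGG and 1 TATAAA.

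Depth ran from 5048321 (AZ5576 replicate 2) to 12743576 human counts per library. Human counts per fly count were 8.81 to 9.29 as group means. By library they were 8.47 to 10.6 in DMSO and 7.97 to 9.27 in AZ5576. In THZ531 they were 8.57 to 9.21, and in YKL5124 8.62 to 9.33. The DMSO libraries alone thus spread more widely than the 4 group means. The part of this spread in results that were lost when scaled to fly counts was not tested. Of 10 myeloid markers none was at 0, with summed levels of 1582 to 1627 CPM (a gene's count scaled to a common library size) in DMSO, 1491 to 1547 in AZ5576, 1394 to 1442 in THZ531 and 1370 to 1502 in YKL5124. Among markers of other cells, HBB, CD3E and CD2 had 0 reads in all 12 libraries, and PAX5 had 0.651 to 4.49 CPM. The part of these marker levels in the lncRNA results was not tested. In bulk RNA, fewer cells with a transcript and less of it per cell cannot be told apart. CPM and fold changes were scaled with trimmed means (TMM), so a rise is relative to other genes. The median of all genes was 0.01 or less in size with TMM, but it was -0.17 for AZ5576, -0.37 for THZ531 and -0.07 for YKL5124 when libraries were scaled to fly counts.

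The lncRNA genes held a small share of the reads, and 1 gene held most of that share. MALAT1 made up 1.17, 1.2 and 1.1% of human counts in DMSO, 1.43, 1.62 and 1.38% in AZ5576, 1.55, 1.52 and 1.31% in YKL5124 and 1.93, 1.98 and 1.96% in THZ531. Each inhibitor library was above each DMSO library, and the THZ531 libraries were above all others. The other lincRNA genes together held 0.4% ± 0.00451 (SD, n = 3) in DMSO, 0.42% ± 0.00808 in AZ5576, 0.417% ± 0.006 in YKL5124 and 0.32% ± 0.00289 in THZ531. Antisense genes held 0.326% ± 0.00346 in DMSO, 0.277% ± 0.00289 in AZ5576, 0.329% ± 0.00252 in YKL5124 and 0.209% ± 0.00451 in THZ531. For antisense genes the AZ5576 and THZ531 libraries lay below all DMSO libraries, and those of YKL5124 overlapped DMSO. For the other lincRNA genes AZ5576 and YKL5124 libraries lay above DMSO and THZ531 libraries below.

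**Figure D1:**
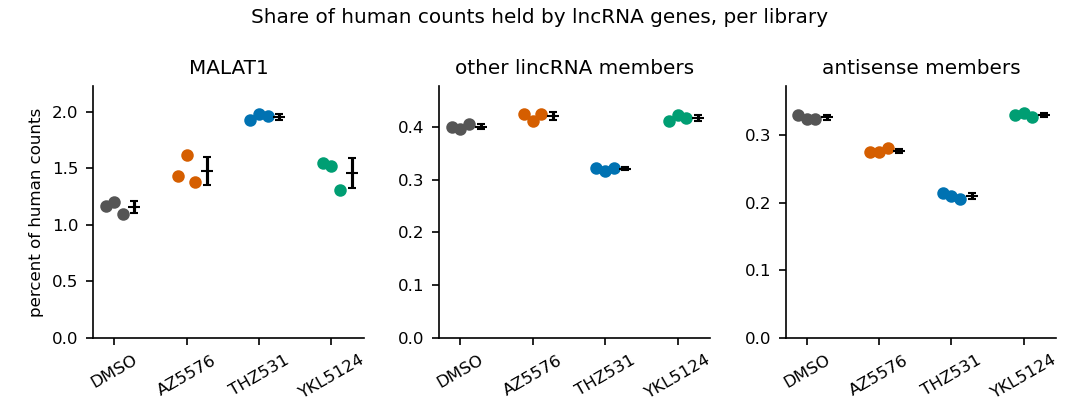
Percent of human counts (y axis, from 0) held by MALAT1, by the other lincRNA genes and by the antisense genes in each of the 12 libraries (points), with the group mean and SD (n = 3) beside them. MALAT1 is at 1.93 to 1.98% in THZ531 against 1.1 to 1.2% in DMSO, while the antisense share falls to 0.205 to 0.214%.

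Of the 783 genes, 782 passed the filter on low counts and were tested among 15831 genes in edgeR's quasi-likelihood test, and 1 (AC008537.4) had counts identical to those of RAB4B and was left out. A gene could pass the total through 1 group: 49 genes had under 30 reads over the DMSO libraries, 88 in AZ5576, 34 in YKL5124 and 273 in THZ531. Without the group in which it was highest, 208 of the 782 genes had under 120 reads. Among genes named below, 9 were of this kind: AC018638.6, IDI2-AS1 and AC073575.2 (highest in AZ5576), SRGAP2-AS1, SREBF2-AS1, AC091271.1, AC005837.1 and MIR22HG (highest in THZ531) and ZNF503-AS2 (highest in DMSO). Their reads in that group let them meet the rule, so their differences from it are descriptions. Against DMSO, AZ5576 gave 147 higher and 172 lower lncRNA genes at an adjusted p under 0.05, or 40.8%, where 41.7% of all genes were called (18.6% higher and 23.1% lower). Under THZ531, 128 were higher and 384 lower, or 16.4% and 49.1%, where 63.4% of all genes were called (30.4% higher and 32.9% lower). Under YKL5124, 156 were higher and 79 lower, or 19.9% and 10.1%, where 20.8% of all genes were called (7.25% higher and 13.5% lower). Without a fold limit, the called share for AZ5576 was near the background in both directions. For THZ531 the share of lower calls, and for YKL5124 the share of higher calls, was above it. All 3 comparisons share the DMSO libraries. At 2-fold or more, AZ5576 gave 74 higher and 88 lower of the 782 genes (background 2.39% and 8.15%). THZ531 gave 60 and 300 (4.23% and 17.5%) and YKL5124 84 and 21 (2.19% and 2.45%). With this limit the share of higher genes was above the background for all 3 inhibitors, AZ5576 and THZ531 included. The share of lower genes was above it for AZ5576 and THZ531 and near it for YKL5124. These counts include the 208 genes that met the rule only with their highest group, which favours large differences. The lncRNA genes tested also had a median of 2.6 CPM, against 11.5 for all genes tested. Shares of lncRNA genes beside the background, here and below, are therefore descriptions, and the part of selection and level in them was not tested. Of the 782 genes, 159 were called in none of the 3 comparisons. The same count over all genes was not taken, so this number cannot be set against a background. Scaling to fly counts left fewer higher calls, at 94 higher and 221 lower for AZ5576, 69 and 459 for THZ531 and 121 and 82 for YKL5124. The higher share of lncRNA calls moved from 46.1% to 29.8% for AZ5576 and from 25% to 13.1% for THZ531. Over all genes the same share moved from 44.7% to 10.3% and from 48% to 13.2%. With fly scaling, the higher share of lncRNA calls was thus above that of all genes for AZ5576 and near it for THZ531.

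The 2 types had medians of the same sign in each comparison, while under AZ5576 the balance of calls differed. The median log2 fold change under THZ531 was -0.54 for lincRNA and -0.74 for antisense genes, against -0.00 for all genes and -0.05 for coding genes. Of 370 lincRNA genes 70 rose and 172 fell, and of 412 antisense genes 58 rose and 212 fell. Under AZ5576 the medians were -0.06 and -0.10, with 83 lincRNA genes higher and 74 lower and 64 antisense genes higher and 98 lower. With a stricter low-count filter the lincRNA median was 0.02. Under YKL5124 they were 0.10 and 0.08, with 86 higher and 33 lower lincRNA genes and 70 higher and 46 lower antisense genes. The difference between the types was not tested, since genes are not replicates of a condition.

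**Figure D2:**
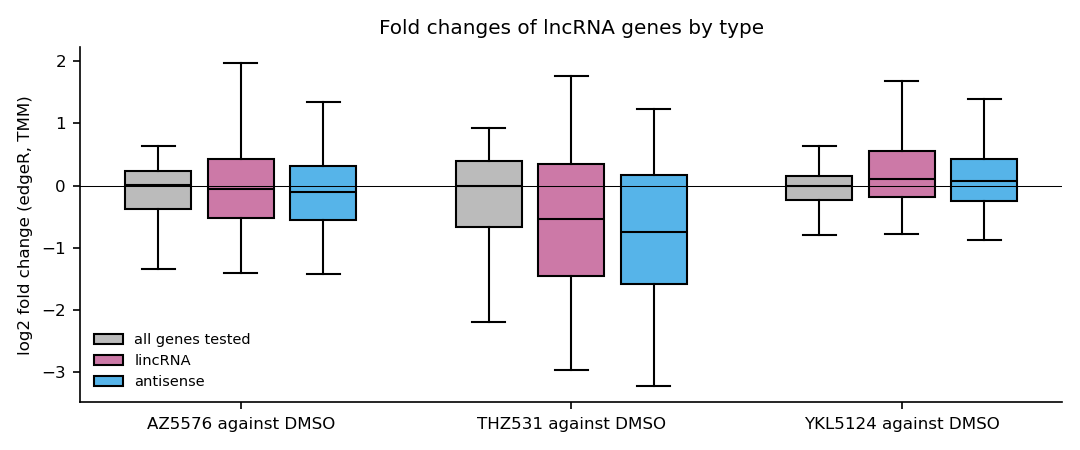
Log2 fold changes (y axis) of all genes tested, lincRNA genes and antisense genes for each inhibitor against DMSO. Boxes span the quartiles with the median as a line, and whiskers run from the 5th to the 95th percentile of genes. The THZ531 boxes of both types lie lowest, with medians of -0.54 and -0.74.

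Among lncRNAs of the nucleus, 4 were members. MALAT1 (ENSG00000251562, chromosome 11, 65497688 to 65506516), a resident of nuclear speckles whose counted exon also holds annotated small RNAs, had 10828, 11204 and 10256 CPM in DMSO and 21626, 22494 and 22536 in THZ531. In AZ5576 it had 14530, 16239 and 14019 CPM, and in YKL5124 14597, 14372 and 12301. No inhibitor library overlapped DMSO, and the log2 fold changes were 1.05 (SE 0.06, edgeR adjusted p = 2.94e-15) for THZ531, 0.47 for AZ5576 and 0.35 for YKL5124. The AZ5576 and YKL5124 calls were lost with fly scaling (0.28 and 0.29). NEAT1 (ENSG00000245532, chromosome 11, 65422774 to 65445540), the scaffold of paraspeckles, had 269, 301 and 279 CPM in DMSO, 468, 456 and 475 in AZ5576, 469, 482 and 447 in YKL5124 and 391, 381 and 375 in THZ531. NEAT1 was higher in every inhibitor library than in DMSO, by 0.72 (SE 0.06, adjusted p = 1.97e-11) for AZ5576, 0.43 for THZ531 and 0.72 for YKL5124 on the log2 scale. With fly scaling the THZ531 value was 0.07 and no longer passed. In the direct comparisons NEAT1 differed by -0.29 (THZ531 minus AZ5576, adjusted p = 9.08e-05) and 0.29 (YKL5124 minus THZ531, adjusted p = 7.89e-05), whereas MALAT1 was highest in THZ531. FRMD8, the coding gene before NEAT1, fell by 0.44, 0.50 and 0.36 under AZ5576, THZ531 and YKL5124.

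KCNQ1OT1 (ENSG00000269821, chromosome 11, 2608328 to 2699994), an imprinted transcript antisense to KCNQ1 that silences its neighbours, went in opposite directions. It had 41.3, 40.1 and 34.8 CPM in DMSO, 23.6, 22.8 and 23.5 in AZ5576, 45.1, 51.3 and 48.9 in YKL5124 and 31.3, 29 and 29.7 in THZ531. It fell by 0.73 on the log2 scale under AZ5576 (SE 0.09, adjusted p = 9.58e-08) and by 0.37 under THZ531, and was 0.32 higher under YKL5124 (SE 0.08, adjusted p = 0.00352), a call lost with fly scaling (0.27). The difference between YKL5124 and AZ5576 was 1.05 (SE 0.09, adjusted p = 4.03e-10). KCNQ1, whose exons it overlaps on the other strand, was 0.32 higher under AZ5576 and 0.28 higher under YKL5124. PVT1, the neighbour of MYC, rose by 0.30 (SE 0.08) under AZ5576, a call lost with fly scaling (0.12), and did not pass for THZ531 or YKL5124 (0.11). Counting the list, 3 of 4 nuclear lncRNAs rose and 1 fell under AZ5576, 2 rose and 1 fell under THZ531 and 3 rose under YKL5124. Over all genes 18.6% were higher and 23.1% lower under AZ5576, 30.4% and 32.9% under THZ531 and 7.25% and 13.5% under YKL5124, and these shares are the background for each list described here.

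Of 3 cytoplasmic lncRNAs, 1 rose and 1 fell under THZ531 and none passed under AZ5576 or YKL5124. NORAD (ENSG00000260032, chromosome 20, 36045622 to 36050960), which binds Pumilio proteins, had 138, 124 and 132 CPM in DMSO and 106, 108 and 117 in THZ531, where it fell by 0.25 (SE 0.06, adjusted p = 0.00114). Its values for AZ5576 (-0.15) and YKL5124 (-0.14) did not pass, but with fly scaling the first was -0.34 and passed. FGD5-AS1 passed in none of the 3 (-0.11, -0.02 and -0.00) with TMM, and with fly scaling it passed for AZ5576 (-0.30) and THZ531 (-0.38). CYTOR, an lncRNA often raised in tumours, had 97.9, 88 and 103 CPM in DMSO and 153, 150 and 163 in THZ531, a rise of 0.69 (SE 0.07, adjusted p = 7.41e-10). Its near-copy MIR4435-2HG rose by 0.87 (SE 0.07, adjusted p = 3.23e-12) under THZ531, from 97.1, 87.4 and 96.2 to 169, 167 and 177 CPM. These 2 genes share nearly identical sequence, so their reads may not be separable. MIR4435-2HG was also 0.36 higher under AZ5576 and 0.23 higher under YKL5124, and both calls were lost with fly scaling (0.16 and 0.16), the second also without DMSO replicate 2 (0.18). BCL2L11, the gene of the apoptosis factor BIM that it overlaps on the other strand, fell by 1.00 under AZ5576 and rose by 1.53 under THZ531.

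Of 8 host genes of microRNAs, 5 rose and 2 fell under THZ531, 1 rose and 2 fell under AZ5576, and 1 rose and 2 fell under YKL5124. Over all genes tested under THZ531, 30.4% were higher and 32.9% lower. MIRLET7BHG (ENSG00000197182, chromosome 22, 46053869 to 46113928), a host of let-7 microRNAs, had 13.6, 11.1 and 11.5 CPM in DMSO, 9.19, 7.92 and 8.43 in AZ5576, 7.27, 6.8 and 6.83 in YKL5124 and 1.69, 0.662 and 0.749 in THZ531. All inhibitor libraries were below DMSO, and the fall of 3.59 under THZ531 (SE 0.23, adjusted p = 2.39e-14) was 12-fold. The AZ5576 call (-0.49) was lost without DMSO replicate 1 (-0.39). MIR22HG (ENSG00000186594, chromosome 17, 1711493 to 1717174), which hosts a single microRNA, had 15, 12 and 10 reads in DMSO and 38, 40 and 31 in THZ531, a difference of 2.04 on the log2 scale (SE 0.30). The other 3 groups held 88 of its 197 reads. Its values for AZ5576 (-0.38) and YKL5124 (-0.15) did not pass. WDR81, which starts 573 bases from the start of MIR22HG on the other strand, fell by 1.42 under THZ531. MIR9-3HG fell by 1.26 under THZ531 (SE 0.16), and DLEU2, a host gene in a region often deleted in leukaemia, rose by 0.51 (SE 0.10), a call lost with fly scaling (0.14) or library size alone (0.22). TRIM13, which DLEU2 overlaps, fell by 0.86, 1.35 and 0.51 under AZ5576, THZ531 and YKL5124. MIR155HG, the host of an inflammatory microRNA, passed in none of the 3 (-0.51, -0.30 and -0.61).

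The homeobox cluster lncRNAs lie among the HOXA genes that MLL fusions keep active. HOTTIP (ENSG00000243766, chromosome 7, 27198575 to 27207259), at the 5' tip of the cluster beside HOXA13, had 17.5, 17.7 and 19.7 CPM in DMSO, 4.79, 5.35 and 6.26 in AZ5576, 16.1, 11.2 and 13.2 in YKL5124 and 16.1, 14.6 and 12.7 in THZ531. AZ5576 libraries were lowest, with a fall of 1.74 (SE 0.15, adjusted p = 7.81e-11). The smaller falls of 0.35 under THZ531 and 0.46 under YKL5124 were lost without DMSO replicate 3 (-0.29 and -0.40), the first also without THZ531 replicate 3 (-0.29) and the second without YKL5124 replicate 2 (-0.34) or with summed rows (-0.30). HOXA13 fell by 1.06, 0.49 and 1.34 under AZ5576, THZ531 and YKL5124. HOXA11-AS had 39.7, 44.6 and 43.2 CPM in DMSO and 16.4, 23.3 and 19.9 in THZ531, a fall of 1.09 (SE 0.10, adjusted p = 6.62e-11), while its coding neighbour HOXA11 was 0.39 higher (SE 0.12). Under AZ5576 and YKL5124 the coding gene was the one that changed, since HOXA11-AS did not pass (-0.05 and -0.04) and HOXA11 fell by 0.82 and 0.96. HOXA10-AS fell by 0.85 under THZ531 and by 0.38 under YKL5124, and HOXA9, whose span it overlaps, rose by 1.00 and fell by 0.83. The counted exon of HOXA10-AS overlaps exons of HOXA10 on the other strand, and values of HOXA10 are not given here. HOTAIRM1, a myeloid lncRNA at the 3' end of the cluster whose counted exon holds annotated small RNAs, was 0.33 higher under THZ531 (SE 0.09, adjusted p = 0.00223) with TMM but at -0.03 with fly scaling.

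Of 4 lncRNAs beside inducible or immune genes, 2 fell and 0 rose under THZ531, 2 fell and 1 rose under AZ5576, and 2 fell under YKL5124. PSMB8-AS1 (ENSG00000204261, chromosome 6, 32844086 to 32846495), which starts 39 bases from the immunoproteasome gene PSMB8, had 60.5, 63.6 and 61.3 CPM in DMSO, 46.7, 43.6 and 44.9 in AZ5576, 41.6, 39.8 and 38.2 in YKL5124 and 9.9, 11.4 and 12.8 in THZ531. It fell by 2.43 under THZ531 (SE 0.09, adjusted p = 2.68e-19), and PSMB8 was 0.25 higher. The counted exon of PSMB8-AS1 overlaps exons of TAP1 on the other strand. ZNF503-AS2 had 3.19, 2.95 and 3.07 CPM in DMSO, 0.879, 0.792 and 1.09 in AZ5576, 1.33, 1.68 and 2 in YKL5124 and 0.521, 0.882 and 1.18 in THZ531. Its counted exon overlaps AC010997.4 on the other strand. It held 113 of its 217 reads in DMSO, the group in which it was highest. It fell by 1.69 under AZ5576, by 1.79 under THZ531 and by 0.85 under YKL5124, the last a call lost without DMSO replicate 1 (-0.82), YKL5124 replicate 1 (-0.73) or YKL5124 replicate 2 (-0.84), with summed rows (-0.88) or with DESeq2 (-0.83). With summed rows the THZ531 call was lost too (-0.91). Its coding partner ZNF503, a transcriptional repressor, fell by 2.12 under AZ5576 and by 1.30 under YKL5124 and rose by 1.45 under THZ531. Among 2 lncRNAs reported as p53 targets, NEAT1 is given above, and TP53TG1 was 0.69 higher under YKL5124 (SE 0.20, adjusted p = 0.0135), a call lost without DMSO replicate 2 (0.60), YKL5124 replicate 1 (0.63) or 2 (0.59).

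**Figure D3:**
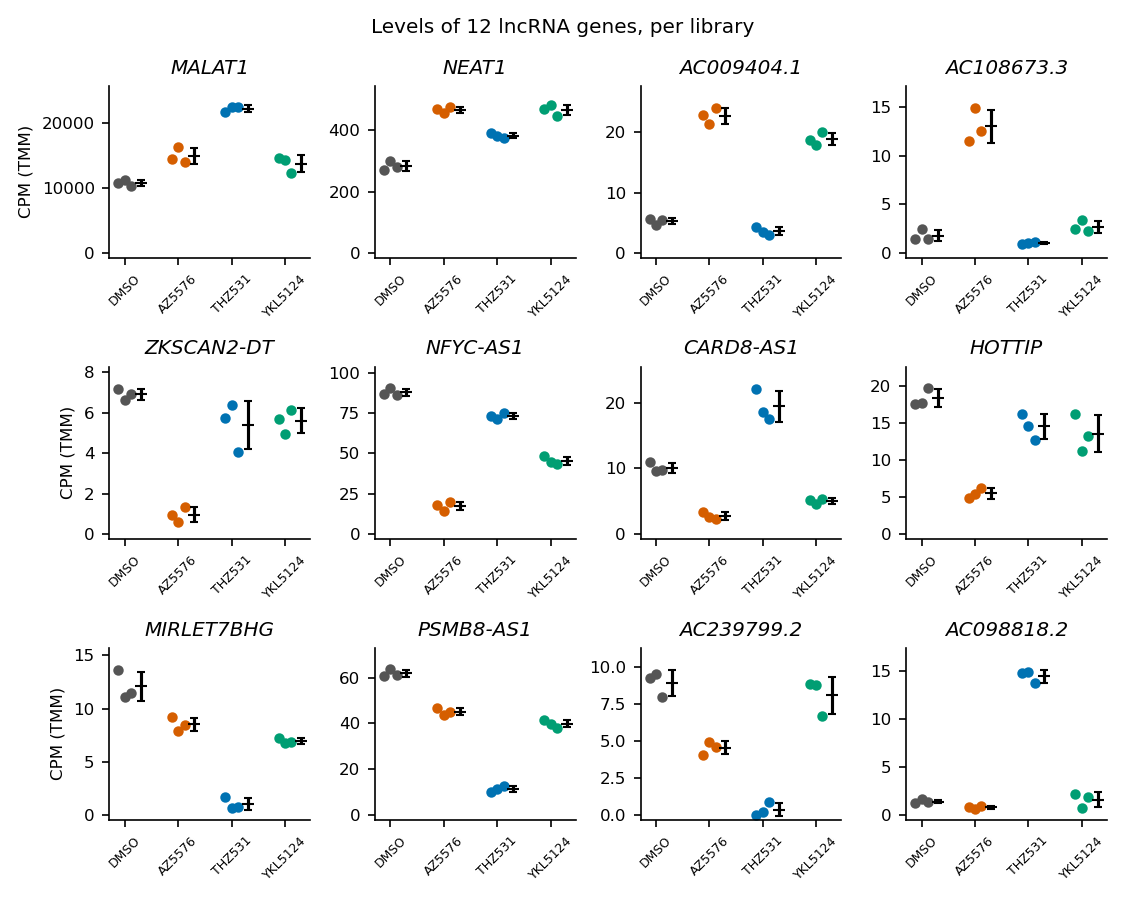
Levels of 12 lncRNA genes in TMM-scaled CPM (y axes, each with its own scale from 0) in the 3 libraries of each group (points), with the mean and SD beside them. NFYC-AS1, ZKSCAN2-DT and HOTTIP are lowest in AZ5576, MIRLET7BHG, PSMB8-AS1 and AC239799.2 in THZ531, and AC098818.2 stands out at 13.7 to 14.9 CPM in THZ531.

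Among called genes that reached 5 CPM in 1 of the 2 groups compared, with libraries that do not overlap, the largest rises under AZ5576 were in transcripts with few reads in DMSO. AC018638.6 (ENSG00000271344, chromosome 7, 128690451 to 128691717), a single-exon lincRNA, had 2, 1 and 0 reads in DMSO, 65, 28 and 52 in AZ5576, 19, 22 and 29 in YKL5124 and none in THZ531. It met the limit of 120 reads only through AZ5576, which held 145 of its 218 reads. The count ratio of AZ5576 to DMSO was 60.1, with a 95% counting interval of 20.2 to 295, and that of YKL5124 to DMSO was 27.6 (9.08 to 137). IDI2-AS1 (ENSG00000232656, chromosome 10, 1022666 to 1044201), which overlaps the isoprenoid enzyme gene IDI1 on the other strand, had 5, 2 and 1 reads in DMSO, 89, 30 and 82 in AZ5576 and 19, 33 and 38 in YKL5124. Both genes were thus higher in AZ5576 and YKL5124 than in DMSO and had no read in any THZ531 library. IDI2-AS1 too met the limit only through AZ5576, with 201 of its 299 reads. It was 4.88 higher under AZ5576 (SE 0.34), while IDI1 was 0.30 higher. Against DMSO, IDI2-AS1 was at least 1.9-fold lower in THZ531. AC015961.2 (log2 fold change 3.66, SE 0.31), AC073575.2 (3.36, SE 0.35) and AC011912.1 (3.19, SE 0.31) followed, and under YKL5124 they were higher by 3.36, 2.23 and 2.37. None of the 3 rose under THZ531, where AC073575.2 fell by 1.81 with libraries that overlapped DMSO.

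Among the 5 largest falls under AZ5576 by the same limits, ZKSCAN2-DT, NFYC-AS1 and AC097376.2 start beside a coding gene, AC067852.2 lies against HSD17B1, and AL662844.4 lies apart. NFYC-AS1 (ENSG00000272145, chromosome 1, 40690380 to 40692066), whose start lies 53 bases from that of NFYC, a subunit of the CCAAT-binding factor, had 87, 90.3 and 85.9 CPM in DMSO, 18.1, 14.5 and 19.6 in AZ5576, 48.1, 44.8 and 43.2 in YKL5124 and 73, 71.5 and 74.8 in THZ531. The 4 groups did not overlap, and NFYC-AS1 fell by 2.29 under AZ5576 (SE 0.09, adjusted p = 8.2e-19), by 0.26 under THZ531 and by 0.95 under YKL5124. NFYC was at 0.01 under AZ5576 (SE 0.06). ZKSCAN2-DT (ENSG00000274925, chromosome 16, 25257952 to 25261066), divergent from the zinc finger gene ZKSCAN2, had 7.19, 6.66 and 6.92 CPM in DMSO and 0.959, 0.594 and 1.34 in AZ5576, a fall of 2.72 (SE 0.24, adjusted p = 2.32e-10). It did not pass under THZ531 (-0.37) or YKL5124 (-0.31), whereas ZKSCAN2 fell by 1.94 under AZ5576 and by 2.51 under THZ531. AC067852.2 (-2.30, SE 0.15), AL662844.4 (-2.04, SE 0.23) and AC097376.2 (-1.91, SE 0.24) also fell. AL662844.4 rose by 1.02 under THZ531, and AC067852.2 fell in all 3 comparisons.

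By the same limits, the 5 largest rises under THZ531 were in genes that lie against a coding gene or start beside one. SRGAP2-AS1 (ENSG00000230806, chromosome 1, 121360156 to 121398806), against the SRGAP2C gene, had 3, 1 and 2 reads in DMSO, 0, 1 and 1 in AZ5576, 2, 0 and 0 in YKL5124 and 41, 46 and 44 in THZ531. It met the limit of 120 reads only through THZ531, which held 131 of its 141 reads, so its difference of 4.85 (SE 0.43) is a description. SRGAP2C fell by 0.68. SRGAP2 has near-identical copies, so the source of these reads is uncertain. AC098818.2 (ENSG00000260278, chromosome 4, 78773654 to 78775973), divergent from the kinase gene BMP2K, had 1.26, 1.62 and 1.34 CPM in DMSO, 0.879, 0.594 and 0.918 in AZ5576, 2.18, 0.746 and 1.83 in YKL5124 and 14.7, 14.9 and 13.7 in THZ531. Its rise of 3.36 (SE 0.21, adjusted p = 1.63e-14) passed for THZ531 and not for AZ5576 (-0.71) or YKL5124 (0.16), and BMP2K fell by 1.25. AC124283.1, against the forkhead gene FOXK2, had 0.519, 0.952 and 1.1 CPM in DMSO and 9.11, 8.71 and 8.77 in THZ531 (3.37, SE 0.24), and FOXK2 fell by 2.37. SREBF2-AS1 (3.21, SE 0.29), against the sterol regulator SREBF2, and AC091271.1 (2.65, SE 0.24), divergent from the clathrin gene CLTC, also rose, with SREBF2 at 0.34 and CLTC at 0.10. The coding partner fell in 3 of these 5 pairs, where 36% of all coding genes tested were lower under THZ531.

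By the same limits, the largest fall under THZ531 left few reads. AC239799.2 (ENSG00000276509, chromosome 1, 146235806 to 146237807) had 125, 100 and 101 reads in DMSO, 51, 25 and 55 in AZ5576, 73, 94 and 80 in YKL5124 and 0, 2 and 8 in THZ531. It fell by 4.49 under THZ531 (SE 0.33, adjusted p = 1.02e-12) and by 1.00 under AZ5576, and it did not pass under YKL5124 (-0.15). AC008894.2 (ENSG00000269243, chromosome 19, 16123661 to 16139892), against the vesicle transport gene RAB8A, had 19.3, 20 and 23.1 CPM in DMSO and 1.69, 1.21 and 1.39 in THZ531, a 14.5-fold fall, with RAB8A at 0.16 (SE 0.10). AC067852.2 (-3.48, SE 0.17) and AC096992.2 (-3.37, SE 0.32) followed, and MIRLET7BHG is given above. Some genes under 5 CPM in both DMSO and THZ531 fell further than AC096992.2, among them AC120053.1 (-3.45) and AL669831.5, whose count ratio of DMSO to THZ531 was 23 (7.63 to 113). IDI2-AS1, with no read in THZ531, is given above by its bound.

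YKL5124 had its largest rises, among genes at 5 CPM or more in YKL5124 or DMSO, in AC011815.2 (2.39, SE 0.26), LINC00562 (1.96, SE 0.16), AC009404.1 (1.84, SE 0.13), AP003469.4 (1.71, SE 0.13) and AL365181.2 (1.68, SE 0.16). AC018638.6 (count ratio given above), IDI2-AS1 (3.66), AC015961.2 (3.36), AC011912.1 (2.37) and AC073575.2 (2.23), under 5 CPM in both groups, differed by more than LINC00562. The 5 genes at 5 CPM or more also rose under AZ5576 and fell under THZ531. AC009404.1 (ENSG00000236255, chromosome 2, 117833937 to 117841658), which lies 1558 bases after the end of the helicase gene DDX18, had 5.56, 4.66 and 5.5 CPM in DMSO, 22.9, 21.4 and 24 in AZ5576, 18.7, 18 and 20.1 in YKL5124 and 4.3, 3.53 and 2.99 in THZ531. AZ5576 and YKL5124 libraries lay above all DMSO libraries and THZ531 libraries below them. DDX18 was at 0.01 under AZ5576, 0.12 under THZ531 and -0.06 under YKL5124, none of which passed. LINC00562 had 3.33, 3.43 and 3.85 CPM in DMSO and 16.1, 12.9 and 12.8 in YKL5124, with 7.67, 5.75 and 7.68 in AZ5576 and 1.04, 1.32 and 1.5 in THZ531. Its span overlaps that of the coding gene SUCLA2 on the same strand. AL365181.2 had 2.96, 4.38 and 4.4 CPM in DMSO, 12.4, 12 and 12.8 in YKL5124 and 0.391, 0.221 and 0.642 in THZ531.

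The largest falls under YKL5124 among genes at 5 CPM or more in YKL5124 or DMSO were AC067852.2 (-1.68, SE 0.13), AL033527.3 (-1.29, SE 0.20), AC097376.2 (-1.24, SE 0.21), SCAMP1-AS1 (-1.06, SE 0.18) and CARD8-AS1 (-1.01, SE 0.15). AC027307.3, under 5 CPM in both groups, fell by 1.32. Under AZ5576 the 5 genes were at -2.30, -1.68, -1.91, -1.87 and -1.87. The difference between YKL5124 and AZ5576 was past the threshold in the direct test for AC067852.2, SCAMP1-AS1 and CARD8-AS1. CARD8-AS1 (ENSG00000268001, chromosome 19, 48255675 to 48258199), divergent from the inflammasome sensor gene CARD8, had 11, 9.61 and 9.75 CPM in DMSO, 3.35, 2.58 and 2.25 in AZ5576, 5.21, 4.57 and 5.33 in YKL5124 and 22.1, 18.5 and 17.5 in THZ531. The groups did not overlap, and CARD8-AS1 rose by 0.93 under THZ531 (SE 0.13, adjusted p = 2.49e-07) while CARD8 fell by 1.73. Under AZ5576 and YKL5124, CARD8 did not pass (-0.08 and 0.10). SCAMP1-AS1 had 6.45, 6.38 and 7.71 CPM in DMSO and 3.52, 2.52 and 3.83 in YKL5124, and SCAMP1, whose start lies 76 bases away, was at 0.04.

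The lncRNA genes were also described by position. Genes were classed, in this order, as divergent (301 tested) or overlapping a coding gene on the other strand (133) or on the same strand (35). The rest were downstream, within 10000 bases after the end of a coding gene on the same strand (74), or apart (239). Divergent genes start within 1000 bases, on either side, of a coding start on the other strand. Some of them thus also overlap their partner, as the counted exons of NFYC-AS1 and AC091271.1 do. Of the downstream genes 30 were higher and 7 lower under AZ5576, with a median of 0.37, whereas of the divergent genes 28 were higher and 87 lower, with a median of -0.25. That is 40.5% higher and 9.46% lower for downstream and 9.3% and 28.9% for divergent genes, where 18.6% and 23.1% of all genes were called. Antisense overlapping genes had 38 higher and 14 lower (0.19, or 0.01 with fly scaling), and genes apart had 41 and 56 (-0.14), at 17.2% and 23.4% near the share of all genes. Under YKL5124 the downstream genes again had the highest median, 0.35 with 24 higher and 6 lower, against 0.05 for divergent genes (43 and 34), where 7.25% of all genes were higher and 13.5% lower. Under THZ531 the downstream genes had the lowest median, -1.08 with 9 higher and 44 lower, and divergent genes had -0.52 (51 and 143), where 30.4% of all genes were higher and 32.9% lower. With fly scaling the AZ5576 medians were 0.19 for downstream and -0.43 for divergent genes. Among those averaging 2 CPM or more over the 12 libraries the AZ5576 medians were 0.37 (43 genes) and -0.24 (188 genes). The classes overlap with the types, since 57 of 74 downstream genes were lincRNA and 213 of 301 divergent genes were antisense. Within lincRNA genes under AZ5576, 27 of 57 downstream genes were higher and 3 lower, and 12 of 88 divergent genes were higher and 29 lower. Within antisense genes, 3 of 17 downstream genes were higher and 4 lower, with a median of -0.21, and 16 of 213 divergent genes were higher and 58 lower, with a median of -0.24.

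**Figure D4:**
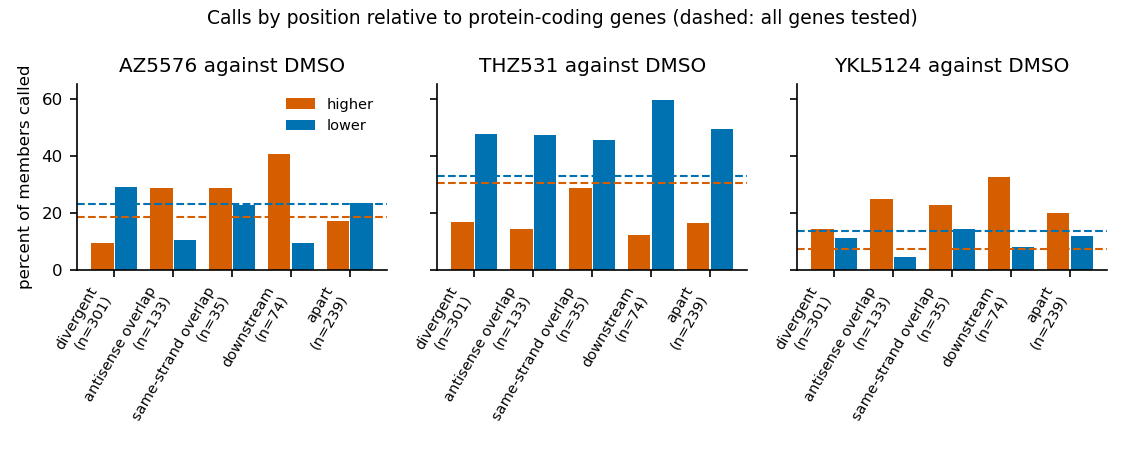
Percent of tested lncRNA genes called higher and lower (y axis, from 0) by position class for each inhibitor against DMSO, with the same percent over all genes tested as dashed lines. Downstream genes have 40.5% higher and 9.46% lower under AZ5576 and 12.2% higher and 59.5% lower under THZ531.

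Coding partners had medians near 0. The median log2 fold change of the coding partners of downstream genes was -0.07 under AZ5576, -0.03 under THZ531 and -0.09 under YKL5124, and that of partners of divergent genes was -0.00, 0.03 and -0.02. Of the 30 downstream genes that rose under AZ5576, the partner rose in 5 and fell in 6, where 10 of all 74 partners rose and 22 fell. Of the 87 divergent genes that fell under AZ5576, the partner rose in 21 and fell in 27, and of the 143 that fell under THZ531 it rose in 53 and fell in 54. Over all 301 divergent pairs, the partner rose in 71 and fell in 87 under AZ5576 and rose in 107 and fell in 108 under THZ531. The shares beside falling divergent genes were thus near those over all divergent pairs. As a description across pairs, the correlation of the 2 fold changes was -0.03 over 301 divergent pairs and 0.21 over 74 downstream pairs under AZ5576, and 0.02 and 0.02 under THZ531. Both genes of a pair come from the same libraries. A downstream example is AC108673.3 (ENSG00000273437, chromosome 3, 129163606 to 129163940), which lies 5544 bases after CNBP. It had 1.48, 2.47 and 1.42 CPM in DMSO, 11.5, 14.9 and 12.5 in AZ5576, 2.42, 3.36 and 2.25 in YKL5124 and 0.911, 0.993 and 1.18 in THZ531. It was 2.85 higher under AZ5576 (SE 0.20, adjusted p = 1.1e-12), with CNBP, a nucleic acid-binding zinc finger gene, at 0.21, and it did not pass for THZ531 (-0.75) or YKL5124 (0.61).

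**Figure D5:**
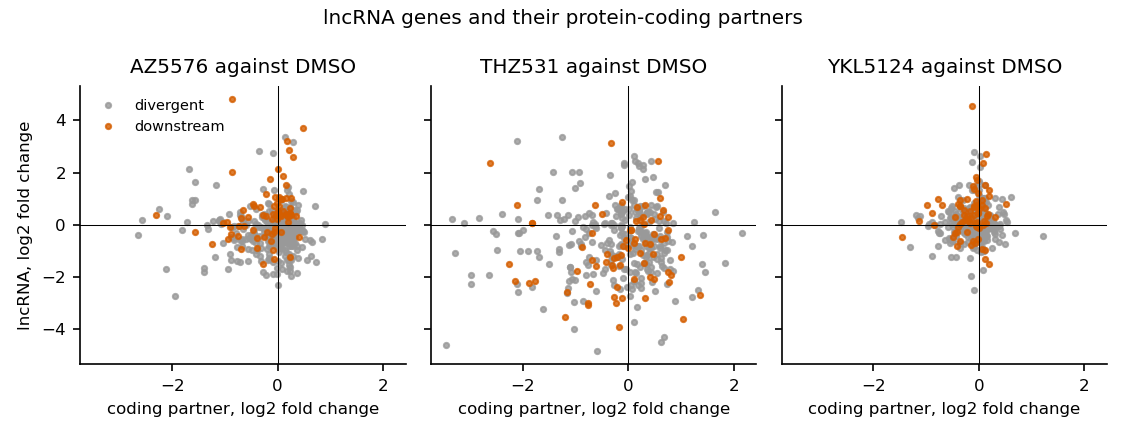
Log2 fold change of each lncRNA gene (y axis) against that of its coding partner (x axis) for divergent (grey) and downstream (orange) pairs, for each inhibitor against DMSO. Under AZ5576 the correlation across pairs is -0.03 for 301 divergent and 0.21 for 74 downstream pairs.

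Span, splicing and 3' end were described the same way. Under THZ531, 32.9% of all genes tested and 49.1% of all lncRNA genes tested were lower. Each share of lower genes given in this paragraph was above the first of these. Under THZ531, 41.9% of 363 genes shorter than 3 kb were lower and 57.9% of 152 genes from 10 to 50 kb, with medians of -0.40 and -0.81, but 92 genes over 50 kb had 46.7% lower and a median of -0.39. Single-exon and spliced transcripts had 49.1% and 49.1% lower under THZ531. By 3' end, 44.9% of transcripts with AATAAA were lower under THZ531, 53.8% of those with ATTAAA and 53.7% of those with neither hexamer. The 29 genes whose counted exon overlaps another counted gene on the same strand had medians of 0.32 under AZ5576 and 0.33 under THZ531, and their reads cannot be told apart from those of the other gene.

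Inhibitors were also compared with each other, which does not use the DMSO levels. THZ531 against AZ5576 gave 148 higher and 347 lower lncRNA genes, where 55% of all genes were called (27.1% higher and 27.8% lower), and 97 and 276 at 2-fold or more (background 8.51% and 13.4%). YKL5124 against AZ5576 gave 100 higher and 38 lower, where 15.8% were called (9.6% higher and 6.23% lower), and 55 and 18 at 2-fold (3.12% and 0.543%). YKL5124 against THZ531 gave 410 higher and 122 lower, where 61% were called (30.5% each way), and 328 and 66 at 2-fold (16.5% and 6.3%). Between YKL5124 and AZ5576, divergent genes had 48 higher and 8 lower, a median of 0.27, and downstream genes 5 and 8, a median of -0.00. Downstream genes had medians of -1.30 for THZ531 against AZ5576 and 1.26 for YKL5124 against THZ531, where those of divergent genes were -0.32 and 0.65.

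Among genes at 5 CPM or more in 1 of the 2 groups compared, the largest differences between THZ531 and AZ5576 were, but for AC005837.1, in genes described above. SRGAP2-AS1 had a count ratio of 74.2 (20.1 to 619) in favour of THZ531, AC098818.2 was 4.08 higher (SE 0.24) and AC005837.1 was 3.44 higher (SE 0.29). AC018638.6 and IDI2-AS1 were at least 42.7-fold and at least 59.2-fold lower in THZ531, taking 3 reads over its 3 libraries as the limit of detection, and AC073575.2 was 36-fold lower. Between YKL5124 and AZ5576, ZKSCAN2-DT was 2.41 higher in YKL5124 (SE 0.26, adjusted p = 5e-08), AC110769.2 2.04 higher (SE 0.18) and AL512625.1 1.62 higher (SE 0.22). AC110769.2, divergent from the actin-related gene ACTR3, had 8.45, 8.76 and 8.81 CPM in DMSO, 2.72, 2.97 and 1.75 in AZ5576, 10.4, 10.6 and 8.66 in YKL5124 and 11.2, 11.5 and 11.6 in THZ531, so AZ5576 alone was low. AC132872.3 (-2.29, SE 0.21), AC108673.3 (-2.24, SE 0.19) and AC110285.6 (-1.23, SE 0.19) were lower in YKL5124 than in AZ5576. AC132872.3, against the casein kinase gene CSNK1D, had 12.1, 8.92 and 12.4 CPM in AZ5576 and 1.81 to 4.19 in the other libraries.

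Between YKL5124 and THZ531 the largest differences toward YKL5124, among genes at 5 CPM or more in either, were in AL669831.5, AL365181.2 and AC120053.1. IDI2-AS1 and AC018638.6, under 5 CPM in both, were at least 25.3-fold and at least 19.7-fold higher in YKL5124. AL669831.5 had 27, 32 and 38 reads in DMSO, 25, 9 and 35 in AZ5576, 50, 63 and 68 in YKL5124 and 0, 0 and 3 in THZ531, a count ratio of 50.8 (17.1 to 249) for YKL5124 over THZ531. AL365181.2 was 4.84 higher (SE 0.28) and AC120053.1 4.76 higher (SE 0.36) in YKL5124. SRGAP2-AS1, AC027307.3 and AC098818.2 differed most the other way. AC027307.3, which lies 345 bases after the ribosomal protein gene RPS15, had 1.7, 0.952 and 1.42 CPM in DMSO, 1.6, 1.98 and 2.09 in AZ5576, 0.242, 0.652 and 0.666 in YKL5124 and 8.98, 7.06 and 6.95 in THZ531. The difference of YKL5124 minus THZ531 was -3.77 (SE 0.30, adjusted p = 3.34e-12), and AC027307.3 was 2.45 higher under THZ531 than in DMSO. RPS15 was 0.57 higher there.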

How the data were processed

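The authors deposited whole-number read counts per annotated transcript, not normalised, for 256726 human and 38374 fly rows. Trim Galore 0.6.5, bcl2fastq 2.17.1.14, edgeR 3.32.1 and the builds dm6 and hg38 are listed in the submitters' processing notes. Which aligner, counter and strand setting made the counts is not given in the sources used here. A set of 3 columns named UT, a name absent from the labels, was taken as DMSO because the other 9 columns match the inhibitor samples by name. Reads with label conversions were not analysed here. GENCODE v29 gave names to 251529 human rows. Left out were 5197 without a name (0.655 to 0.719% of human row counts per library).

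The row of a spliced non-coding transcript appeared to be its last exon: 629 of 638 sets of transcripts that share a last exon had identical counts. Among nested last exons the outer had fewer counts than the inner in 0.824% of 9346 same-strand pairs and in 79.9% of 149 opposite-strand pairs, so strands were counted apart. Each gene was represented by its row of highest total, and 94 genes with counts identical to another gene's were dropped. Tests used edgeR 4.0.16 in R 4.3.3: filterByExpr (minimum count 10), TMM, 1 quasi-likelihood fit of all 12 libraries with group as the term, and Benjamini-Hochberg adjustment over 15831 genes (threshold 0.05). SE is the log2 fold change over the root of F. Scripts were tested on simulated data. With 3 libraries against 3, an exact permutation test cannot go below p = 0.10, so none is given. Counting intervals and floors cover counting error only.

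Genes named were 12 preset lncRNAs where they met the rule (OIP5-AS1, TUG1, LINC-PINT, HOXA-AS2 and MIR17HG did not), the 5 largest rises and falls against DMSO (3 between inhibitors) among called genes with at least 5 CPM in 1 of the 2 groups compared and libraries that do not overlap, up to 4 genes from each of 6 lists, and their coding partners. The genes, lists and position classes were chosen with earlier results of these data known. Alternatives were RLE, upper quartile, library size and fly scaling, DESeq2 1.42.0, other filters, summed rows, rows chosen on DMSO, no exon overlap, only the 6 libraries compared, a replicate block, and leaving out each library. Leaving THZ531 out of the fit and keeping only genes of at least 2 CPM in the position classes were added after seeing the data.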

Additional observations from a re-analysis of the deposited data

How the results depend on the processing

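Of 24 summary values, those listed here moved by more than the set limit. The lincRNA median for AZ5576 was -0.05 with RLE, -0.00 with upper quartile, -0.18 by library size, -0.23 by fly scaling, -0.08 with no low-count filter, 0.02 with the strict filter, -0.04 with only the 6 libraries, -0.07 with the row chosen on DMSO, -0.04 without THZ531, -0.05 with DESeq2 and -0.02 with no exon overlap. The antisense median was -0.04 with upper quartile, -0.22 by library size, -0.27 by fly scaling, -0.12 with no filter, -0.15 with the strict filter and -0.14 with no exon overlap. For THZ531 the lincRNA median was -0.83 by library size, -0.89 by fly scaling, -0.50 with the strict filter and -0.56 with no exon overlap. The antisense median was -1.03, -1.09, -0.77 and -0.78 in the same order, and -0.61 with only the 6 libraries. For YKL5124 the lincRNA median was 0.13 with RLE, 0.17 with upper quartile, 0.03 with fly scaling, 0.07 with no filter, 0.13 with only the 6 libraries, 0.12 without THZ531 and 0.13 with DESeq2. The antisense median was 0.10, 0.14, 0.02, 0.05 and 0.10 for the first 5 of these, 0.10 with DESeq2 and 0.05 with no exon overlap. Higher calls were 94 for AZ5576 with fly scaling, and 83 and 69 for THZ531 with library size alone and fly scaling. Lower calls were 52 and 51 for YKL5124 with summed rows and DESeq2, and 24 and 25 for YKL5124 against AZ5576 with fly scaling and no exon overlap. The cause was not tested. Leaving out 1 library gave lincRNA medians of -0.07 to -0.00, -0.56 to -0.50 and 0.08 to 0.13 for AZ5576, THZ531 and YKL5124, and antisense medians of -0.13 to -0.08, -0.77 to -0.68 and 0.06 to 0.09. Changed direction, none of them past the threshold except HOTAIRM1 for THZ531 with TMM: CYTOR for AZ5576 (-0.03, fly), HOTAIRM1 for AZ5576 (-0.00, fly), THZ531 (-0.03, fly) and YKL5124 (0.00 RLE, 0.04 upper quartile, 0.00 DESeq2), and DLEU2 for AZ5576 (-0.03 library size, -0.09 fly). PVT1 for THZ531 was 0.01 with RLE, 0.00 with upper quartile, 0.00 with the row chosen on DMSO, 0.01 with DESeq2 and 0.05 without DMSO replicate 1. For YKL5124, FGD5-AS1 was 0.02 with RLE, 0.06 with upper quartile, 0.01 with only the 6 libraries, 0.01 without THZ531, 0.02 with DESeq2 and -0.06 to 0.05 without 1 library. MIR9-3HG was 0.02, 0.05, 0.01, 0.00 and 0.02 in that order and up to 0.07 without 1 library, MIR22HG -0.42 to 0.14 without 1 library, with the highest value without YKL5124 replicate 3, and HOXA11-AS 0.03 with upper quartile and 0.00 without YKL5124 replicate 1. With the replicate number as a block, 24 of 24 summary values stayed within their limits and 106 of 107 named values kept direction and call, while PVT1 for THZ531 was 0.00. Same-numbered libraries of different groups did not all deviate together, with correlations of -0.36 to 0.253. With 3 libraries per group these values cannot tell whether such libraries were handled together. Genes with under 30 reads in a group limit what depth can show.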
